A study of Mus musculus with 4 samples.

Results

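Loci that a transcript assembler placed outside every annotated gene were examined in polyps and polyp-free colorectal tissue of mice raised without microbes (germ-free). They were chosen by position and level: an assembled locus on a numbered chromosome was taken if its interval touched no annotated gene of the same library on either strand and its level was 1 TPM or more. TPM is a level per unit of length, scaled so that all assembled loci of a library sum to 1000000. KO polyps gave 4916 such loci of 28316 assembled loci on numbered chromosomes (17.4%), WT polyps 4947 of 27607 (17.9%) and WT non-polyp tissue 4191 of 26968 (15.5%). Merged by overlap, these 14054 loci of 3 libraries made 9524 distinct intervals. Since the level and the position chose them, their number and level are described here and not tested.

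KO stands for Clec7a-/-, mice without the gene of Dectin-1, a receptor of myeloid cells for β-glucans, and WT for wild type. All mice had received the carcinogen azoxymethane and 3 cycles of 1% dextran sodium sulfate, an agent that damages the colonic epithelium, and tissue was taken at week 36. For each genotype, RNA of the mice was combined into 1 library of polyps and 1 of tissue without polyps, so each group holds 1 library, no replicate error exists, and every difference is one between pools. The KO line had been backcrossed to C57BL/6J, and its germ-free animals came from caesarean births while those of the WT were bought, so genotype and origin of the mice cannot be told apart. The study's text says that polyps developed in WT but not in KO germ-free mice, yet it also reports gene expression in polyps of the latter. The library of KO polyps was therefore taken as labelled, and what tissue it holds was not tested. The table of KO non-polyp tissue lists annotated genes only, and no assembled locus of it was analysed here.

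Transcript assembly joins overlapping aligned reads into loci without regard to an annotation. Such loci can mark long non-coding RNAs that a gene catalogue lacks, stretches read past the end of a gene, antisense RNA from promoters, RNA of enhancers or copies of repeated sequence. In the colon, crypts are kept dividing by Wnt signalling, and many genes induced by that pathway, such as Axin2 and Nkd1, encode its own inhibitors. Loci beside such genes, beside genes of lymphocytes and beside Clec7a itself are followed below.

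The genotype and the tissue of the libraries were checked on annotated genes. Clec7a (chr6:129461591-129472779) stood at 0.102 TPM in KO polyps, 31.2 TPM in WT polyps, 5.97 TPM in WT non-polyp tissue and 0.0766 TPM in KO non-polyp tissue. The 5 epithelial markers (such as Epcam and Krt8) were at 1 TPM or more in every library and summed to between 5114 and 6107 TPM. The libraries differed in other cell types: 11 Wnt and crypt genes summed to 101.7 TPM in KO polyps, 2831 TPM in WT polyps and 160.4 TPM in WT non-polyp tissue, 9 B cell genes to 1471, 43.6 and 68.7 TPM in the same order, and 6 smooth muscle genes to 1508, 392 and 4992 TPM. In such bulk tissue, fewer cells of a type and less RNA per cell cannot be told apart.

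The sequences of the loci themselves were not read here, since no genome of the build was at hand, but 185 of the merged loci overlapped a window around the start of a RefSeq gene that they overlapped (250 bases before to 50 bases after the start, RefSeq annotation of GRCm38.p6, the build of the loci). Windows are shown for 5 long non-coding RNAs that carry results given below: Gm34846 and Gm35162 beside Nkd1, assembled mainly in WT polyps, and Gm33398, Gm33323 and Gm39718, scarcest in WT polyps. Each is written 5′ to 3′ on the strand of its gene. Capitals mark every match on either strand to 5 motifs that were picked with these results known. These were the TATA box TATAAA, the motif CTTTGAT of TCF/LEF factors, which are the DNA-binding partners of β-catenin, and the GC box GGGCGG bound by Sp factors. The others were the motif TTTATNG of the intestinal CDX factors and the motif TGANTCA of the AP-1 family of stress and growth regulators.
Gm34846, plus strand, chr8:88479760-88480059: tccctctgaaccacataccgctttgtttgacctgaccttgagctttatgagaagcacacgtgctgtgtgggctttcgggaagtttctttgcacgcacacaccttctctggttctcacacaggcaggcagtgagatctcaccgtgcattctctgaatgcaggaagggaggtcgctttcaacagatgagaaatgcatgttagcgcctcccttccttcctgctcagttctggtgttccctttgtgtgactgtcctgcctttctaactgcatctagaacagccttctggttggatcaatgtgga
Gm35162, minus strand, chr8:88521072-88521371: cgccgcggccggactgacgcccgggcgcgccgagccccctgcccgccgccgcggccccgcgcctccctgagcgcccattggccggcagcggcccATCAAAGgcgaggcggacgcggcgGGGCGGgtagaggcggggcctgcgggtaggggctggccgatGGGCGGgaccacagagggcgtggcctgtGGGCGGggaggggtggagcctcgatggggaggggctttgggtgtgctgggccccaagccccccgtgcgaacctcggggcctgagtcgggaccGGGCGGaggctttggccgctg
Gm33398, minus strand, chr7:129764621-129764920: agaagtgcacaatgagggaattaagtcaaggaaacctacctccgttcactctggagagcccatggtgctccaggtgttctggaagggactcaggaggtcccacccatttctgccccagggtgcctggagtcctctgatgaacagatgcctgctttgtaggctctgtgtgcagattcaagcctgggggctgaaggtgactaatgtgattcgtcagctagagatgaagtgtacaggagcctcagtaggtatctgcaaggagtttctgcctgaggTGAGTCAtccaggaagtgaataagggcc
Gm33323, plus strand, chr7:129764377-129764676: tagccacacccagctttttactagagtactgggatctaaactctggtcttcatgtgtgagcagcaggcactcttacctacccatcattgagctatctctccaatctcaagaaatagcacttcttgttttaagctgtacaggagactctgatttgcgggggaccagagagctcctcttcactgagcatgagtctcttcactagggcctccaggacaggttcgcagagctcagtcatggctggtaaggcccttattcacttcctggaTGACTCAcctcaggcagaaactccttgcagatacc
Gm39718, plus strand, chr1:181286923-181287222: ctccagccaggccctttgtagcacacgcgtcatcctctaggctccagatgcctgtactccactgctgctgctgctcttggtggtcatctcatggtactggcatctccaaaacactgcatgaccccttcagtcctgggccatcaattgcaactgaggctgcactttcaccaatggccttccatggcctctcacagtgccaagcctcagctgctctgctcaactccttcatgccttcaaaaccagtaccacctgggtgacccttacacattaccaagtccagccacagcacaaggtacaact

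The window of Gm35162, whose locus lies 269 bases upstream of Nkd1, also covers the annotated start of Nkd1 itself. It had a GC content of 79.0% and held GC boxes and a TCF/LEF match, ATCAAAG on the strand shown. These matches cannot be assigned to the start of Gm35162 rather than to that of Nkd1. The windows of Gm33398 and Gm33323 overlap head to head, and the AP-1 match of each is the same stretch read on opposite strands. The windows of Gm34846 and Gm39718 held no match to these letters. Over the 99 long non-coding RNAs with a start window in a locus, TATAAA occurred in 11.1% of windows (13.6% of all 32851 RefSeq start windows), CTTTGAT in 6.06% (3.73%), GGGCGG in 13.1% (35.7%), TTTATNG in 10.1% (10.9%) and TGANTCA in 6.06% (7.81%). The median GC content was 49.3% in these windows and 52.7% in all windows. A match is a description of the letters and not evidence of binding.

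Most of the loci were scarce, short and without strand. Their median level was 2.14 TPM in KO polyps, 2.13 TPM in WT polyps and 2.07 TPM in WT non-polyp tissue, against 5.91, 6.61 and 5.57 TPM for assembled loci that overlapped an annotated gene. Under 5 TPM lay 93.6%, 92.8% and 93.9% of them, and 9, 11 and 12 loci reached 100 TPM. The lowest member had 1.60, 1.59 and 1.54 TPM, and no assembled locus outside genes lay below the minimum of 1 TPM in any library, so no member lay just inside the threshold and no locus just outside it. At the low end, the shortest locus had 200 bases in every library, and the least covered locus without strand had 402, 404 and 402 aligned bases. Over all members the lowest average depth was 1.16, 0.570 and 1.65. The settings of the assembler are not given, and what ended the lists was not tested. The median locus without strand had 1040, 1055 and 1046 aligned bases, which is few reads, and read counts are not given, so no counting interval is given.

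**Figure D1:**
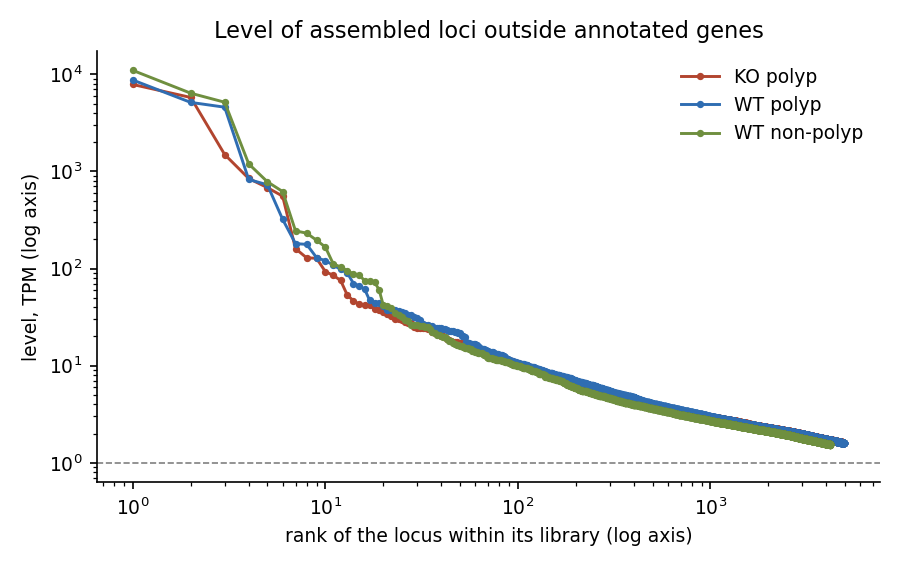
Level of every assembled locus outside annotated genes (TPM, log axis) against its rank within its library (log axis) for KO polyps, WT polyps and WT non-polyp tissue; each point is 1 locus, and the dashed line is the minimum of 1 TPM. In each library 6 loci stand far above the rest, the curves then run close together, and none reaches the dashed line.

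The median length was 390 bases in KO polyps, 400 bases in WT polyps and 397 bases in WT non-polyp tissue, and 801, 831 and 668 loci had 1 kb or more. Loci that overlapped annotated genes had medians of 6188, 6472 and 6631 bases. No strand was given to 92.6% of the loci in every library, against 10.5%, 9.65% and 9.86% of those that overlapped genes. The library kit does not mark strand, so the assembler can give one only where a read crosses a splice junction, and a locus without strand is one without a recognised junction. The 363, 366 and 309 loci with a strand were longer (medians 2257, 2127 and 2231 bases, against 365, 378 and 373 bases without strand), and 30.3%, 33.6% and 30.4% of them reached 5 TPM, against 4.46%, 5.11% and 4.15% of the loci without strand. They were split evenly between the strands, with 173, 166 and 152 on plus and 190, 200 and 157 on minus.

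Together the loci took 31620 TPM in KO polyps, 35390 TPM in WT polyps and 37988 TPM in WT non-polyp tissue, which is 3.16%, 3.54% and 3.799% of the assembled TPM. The 6 highest loci held 54.4%, 57.4% and 66.1% of that, and without them, a choice made after seeing the data, the share was 1.44%, 1.51% and 1.29%. The place of WT non-polyp tissue as the highest share therefore rested on these 6 intervals, while KO polyps lay below WT polyps with and without them. Among loci of 500 bases or more the order of the polyp libraries turned, at 0.748% in KO polyps and 0.738% in WT polyps. The 6 intervals were the same in all 3 libraries and 1 of which, on chromosome 18, is not named here. The highest, chr3:5860338-5860825, stood at 7857 TPM in KO polyps, 8728 TPM in WT polyps and 10976 TPM in WT non-polyp tissue and lay 20.01 kb from the nearest listed gene, Gm37350, which was listed at 0. The locus at chr8:15519774-15520125 stood at 1494, 4587 and 6387 TPM in the same order, past the threshold used below between the polyp libraries (log2 ratio -1.62) and not between the WT libraries (-0.48). The locus at chr11:109011204-109012662, inside the RefSeq long non-coding RNA Gm36876, stood at 846 TPM in KO polyps, 322 TPM in WT polyps and 1196 TPM in WT non-polyp tissue, lowest in WT polyps (log2 ratios 1.39 for KO over WT polyps and -1.89 for WT polyps over WT non-polyp tissue). The loci at chr6:3200768-3201671 (681, 831 and 621 TPM) and chr16:17222291-17222499 (556, 728 and 783 TPM) passed the threshold in neither comparison. These 5 intervals were 209 to 1459 bases long.

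Most loci lay close to an annotated gene, more often past its end than before its start. In KO polyps 1474 loci (30.0%) lay within 1 kb of the nearest gene, 2017 (41.0%) between 1 and 5 kb, 1336 (27.2%) between 5 and 50 kb and 89 (1.81%) farther. WT polyps had 29.1%, 37.5%, 30.8% and 2.49% in these classes, and WT non-polyp tissue 31.7%, 40.7%, 25.96% and 1.65%. Within 1 kb, 65.9% of loci in KO polyps, 62.2% in WT polyps and 66.8% in WT non-polyp tissue lay on the downstream side of the gene, and between 1 and 5 kb 69.2%, 67.6% and 70.4% did. Beyond 50 kb the downstream share was 43.8%, 49.6% and 40.6%. Of loci with a strand within 5 kb upstream, 29.2%, 28.9% and 37.2% had the strand of the gene, and downstream 46.5%, 54.8% and 50.6% did.

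**Figure D2:**
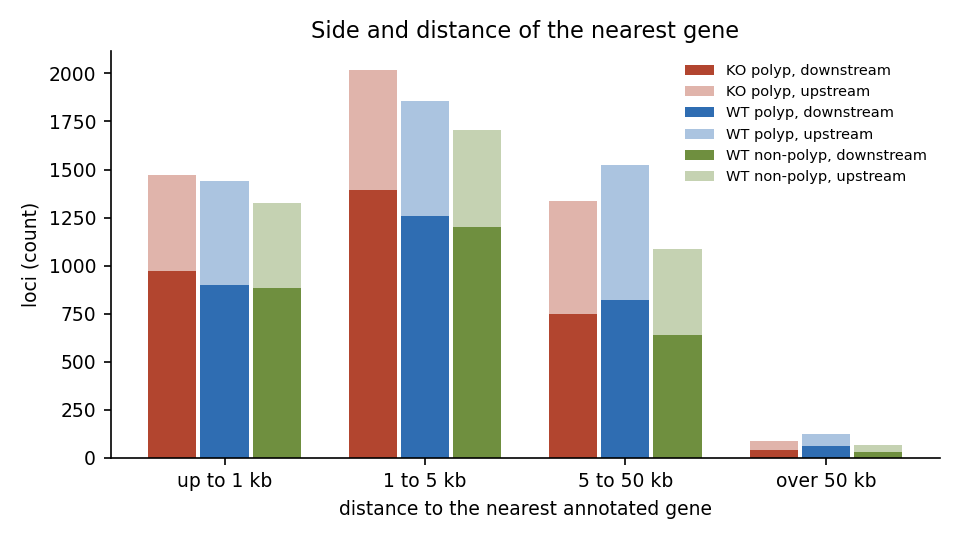
Number of loci (y axis) by distance to the nearest annotated gene (x axis) in KO polyps, WT polyps and WT non-polyp tissue; the dark part of each bar counts loci downstream of that gene and the pale part loci upstream. The bars are highest between 1 and 5 kb, at 2017, 1857 and 1707 loci, and the dark part is the larger one up to 50 kb.

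Genes beside the loci were mostly at 1 TPM or more. The KO polyp library lists 54728 gene rows, and 15166 genes on numbered chromosomes reached 1 TPM in both polyp libraries. A share over all genes was not taken per library. Annotated genes are listed beside the assembled loci and are not part of their sum of 1000000 TPM. Whether gene and locus levels share 1 scale was not tested, so the levels set side by side below are a description only. Of merged loci within 5 kb downstream of a gene, 83.6% in KO polyps, 82.0% in WT polyps and 83.6% in WT non-polyp tissue lay beside a gene at 1 TPM or more, with a median gene level of 13.8, 14.1 and 12.7 TPM against a median locus level of 2.21, 2.19 and 2.12 TPM. Beyond 5 kb, 58.6%, 54.2% and 57.6% of nearest genes reached 1 TPM, and the locus stood above its gene in 48.0%, 54.6% and 49.7% of cases. The locus levels themselves hardly differed with distance, at 2.11, 2.15 and 2.05 TPM beyond 5 kb.

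A share of the loci is known to another annotation. Of the 9524 merged loci, 1240 (13.0%) overlapped a protein-coding RefSeq gene, 1298 (13.6%) a long non-coding RNA, 131 (1.38%) a pseudogene and 52 a gene of another class, while 6803 (71.4%) overlapped none. Of the 1240 at protein-coding genes, 903 overlapped the RefSeq version of the very gene that was nearest in the tables, that is, RefSeq draws that gene longer. Loci in long non-coding RNAs lay farther from the listed genes (median 4934.5 bases, against 779 bases for loci at protein-coding genes) and more often had a strand (22.4%, against 5.89% at protein-coding genes and 5.70% where RefSeq had no gene). Loci at pseudogenes were the most often high, with 25.2% at a mean of 5 TPM or more, against 6.10% of all merged loci. A gene of the GENCODE vM21 catalogue that the tables do not list at that place overlapped 208 of the merged loci. Of 54697 listed genes with a vM21 identifier, 53992 had the vM21 start and end.

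Sharing between libraries was low, and depended on level. Of the 9524 merged loci, 7202 (75.6%) were assembled in 1 library, 2532 of them in KO polyps, 2829 in WT polyps and 1841 in WT non-polyp tissue. All 3 libraries shared 814 (8.55%), KO polyps and WT non-polyp tissue 663, KO and WT polyps 442, and WT polyps and WT non-polyp tissue 403. As a share of each list, 37.2% of KO polyp loci were found in WT non-polyp tissue and 43.8% the other way round, 30.8% of KO polyp loci were found in WT polyps and 31.8% the other way round, and 30.4% of WT polyp loci were found in WT non-polyp tissue and 35.4% the other way round. The KO polyp list thus overlapped the WT non-polyp list more than the WT polyp list. Of KO polyp loci under 2 TPM 19.4% were found in WT polyps, against 34.4% between 2 and 5 TPM, 73.5% between 5 and 20 TPM and 70.7% from 20 TPM up, and 24.2%, 42.6%, 75.4% and 78.0% in WT non-polyp tissue. Between 3.19% and 4.18% of a list overlapped a locus of another library that itself touched a gene. A library with no row at a place can still have had reads there, too few to be assembled, so no fold is given against an absent locus.

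**Figure D3:**
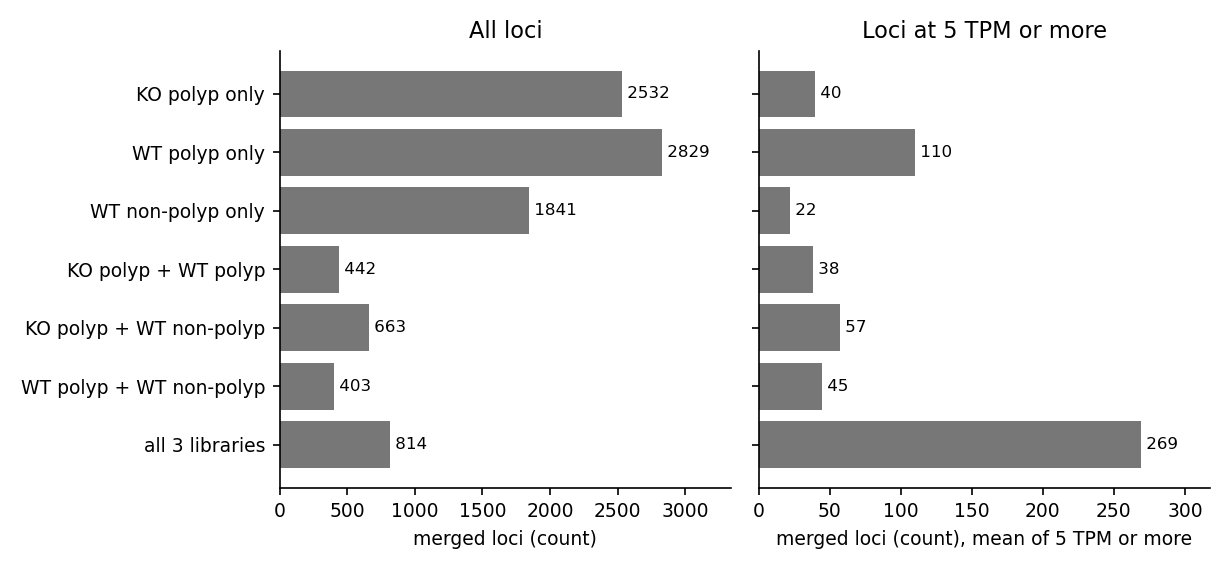
Merged loci (count, x axes) by the libraries that hold them (y axis), for all loci on the left and for those with a mean of 5 TPM or more over the libraries that hold them on the right. Loci in 1 library make up most of the left panel, while on the right the 269 loci shared by all 3 libraries form the longest bar, followed by 110 found in WT polyps only.

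Loci shared by all libraries were higher and longer, with a median level of 3.76 TPM, a median length of 1512 bases and a strand in 22.6%. Loci of KO polyps only had medians of 1.98 TPM and 302 bases, those of WT polyps only 2.02 TPM and 336 bases, and those of WT non-polyp tissue only 1.90 TPM and 298 bases. At a mean of 5 TPM or more stood 40 loci of KO polyps only, 110 of WT polyps only and 22 of WT non-polyp tissue only. Of the loci in 1 library, 2315 of KO polyps, 2671 of WT polyps and 1643 of WT non-polyp tissue met no assembled locus of any kind in the other libraries.

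The highest loci with no assembled counterpart were as follows. In KO polyps, chr2:157528581-157528811 reached 127.7 TPM, 58 bases past Gm14287, a gene listed at 0 TPM in that library. It was followed by chr13:100590013-100590310 (43.0 TPM, near Marveld2, the gene of tricellulin), chr5:123725164-123725506 inside the RefSeq gene Gm19601 (20.02 TPM) and chr15:89768084-89768854 inside Gm19378 (15.5 TPM). In WT polyps, chr5:64425832-64428792 reached 98.7 TPM, summed over 3 rows, 5.16 kb from Gm31363. That gene stood at 0.854 TPM in KO polyps, 2.80 TPM in WT polyps and 0.640 TPM in WT non-polyp tissue. The loci over the long non-coding RNAs Gm40100 (39.5 TPM) and Gm39737 (35.3 TPM) followed, summed over 5 and 12 rows. The KO polyp loci given above were 1 row each. In WT non-polyp tissue the levels were lower, with 11.99 TPM just past the end of the neuropilin gene Nrp1 (chr8:128503395-128505442), 8.81 TPM near Anapc16 and 8.16 TPM in Btbd9.

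The longest locus of KO polyps, on chromosome 12 over Gm40446, was found in all libraries, at 15.4 TPM in KO polyps, 8.61 TPM in WT polyps and 18.01 TPM in WT non-polyp tissue. The longest of WT polyps (chr1:15925718-15989741, 64.0 kb, 11.2 TPM) lay 33.0 kb from Sbspon, which stood at 0.639 TPM in KO polyps, 26.9 TPM in WT polyps and 1.14 TPM in WT non-polyp tissue, and had no counterpart. The longest of WT non-polyp tissue, over Gm52620, was a 66.4 kb interval at 1.83 TPM.

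To compare polyps of the genotypes, the log2 ratio of TPM + 1 was taken for the 1256 merged loci with a level in both polyp libraries, with the study's threshold of 1 in either direction. In KO polyps 88 loci (7.01%) were higher and 77 (6.13%) lower than in WT polyps, with a median of 0.05. Of 15166 annotated genes at 1 TPM or more in both libraries, 10.7% were higher and 9.35% lower, shares above those of the loci. Among the 445 loci whose higher level was at least 5 TPM, 79 (17.8%) were higher and 68 (15.3%) lower, against 12.1% and 10.4% of genes above the same level, where the shares of the loci were the larger ones. These counts depend on how loci are matched: with the highest row of each merged locus in place of the sum 65 were higher and 37 lower, and with an overlap of at least 50% of both intervals 28 and 25 of 766. In the classes of RefSeq, 28 of 168 matched loci in long non-coding RNAs were higher and 11 lower, and 8 of 268 at protein-coding genes were higher and 18 lower.

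The long non-coding RNA Gm33901, 3.38 kb downstream of Azin2 (antizyme inhibitor 2, a regulator of polyamine synthesis), gave the highest ratio: the locus chr4:128917328-128926858 stood at 27.6 TPM in KO polyps, 2.32 TPM in WT polyps and 22.4 TPM in WT non-polyp tissue (log2 ratio 3.10 for KO over WT polyps). Azin2 itself stood at 6.87, 5.89 and 3.79 TPM in the same order and did not share that pattern. The locus over Gm33398 and Gm33323 stood at 29.4 TPM in KO polyps, 4.12 TPM in WT polyps and 26.3 TPM in WT non-polyp tissue (log2 ratio 2.57). In both, KO polyps and WT non-polyp tissue lay close together and WT polyps lay low.

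A locus 13.3 kb upstream of Cd2ap, the gene of an adaptor protein of the actin cytoskeleton, showed a milder form of the same order, with 71.2 TPM in KO polyps, 13.4 TPM in WT polyps and 43.8 TPM in WT non-polyp tissue (log2 ratio 2.32). These levels sum 4, 2 and 3 rows. With the highest row alone the log2 ratio was 1.51. That of WT polyps over WT non-polyp tissue went from -1.64 to -0.88 and was no longer called. The gene Cd2ap stood at 85.9, 65.0 and 89.5 TPM. Other loci were high in KO polyps alone. The spliced locus chr19:8019569-8034056, 28.2 kb from Slc22a28, a gene of the organic anion transporter family that stood at 0.0107 TPM or less in these libraries, had 46.5 TPM in KO polyps, 5.86 TPM in WT polyps and 5.20 TPM in WT non-polyp tissue (log2 ratio 2.79). The locus chr7:106501055-106501567, 2.67 kb downstream of Gm8995, had 16.7 TPM in KO polyps, 1.68 TPM in WT polyps and 2.25 TPM in WT non-polyp tissue (log2 ratio 2.73), and Gm8995 ran alongside, at 19.2, 1.82 and 2.45 TPM.

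Among the loci lower in KO polyps, chr6:129028336-129029524 stood at 1.78 TPM in KO polyps against 25.99 TPM in WT polyps (log2 ratio -3.28), with no locus in WT non-polyp tissue. The locus chr14:54530365-54538061, 3.72 kb downstream of Haus4 (a subunit of the augmin complex of the mitotic spindle), stood at 1.87 TPM in KO polyps, 26.6 TPM in WT polyps and 35.0 TPM in WT non-polyp tissue (log2 ratio -3.26). Haus4 stood at 21.8, 36.8 and 19.2 TPM, so the gene did not show the low level of the locus in KO polyps. The locus over the long non-coding RNA Gm33714 stood at 2.39, 26.2 and 6.25 TPM (log2 ratio -3.00), and was high in WT polyps only.

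A locus 0.963 kb past Hist1h4m, a histone H4 gene, stood at 16.0 TPM in KO polyps, 96.1 TPM in WT polyps and 57.4 TPM in WT non-polyp tissue (log2 ratio -2.51). A locus near F5, the gene of coagulation factor V, stood at 5.95, 27.6 and 15.1 TPM (log2 ratio -2.04). The locus chr7:17537923-17542975, 67.8 kb from any listed gene, stood at 2.61, 12.9 and 4.11 TPM (log2 ratio -1.94), where the WT polyp level sums 3 rows and the call was lost with the highest row alone (-0.66).

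**Figure D4:**
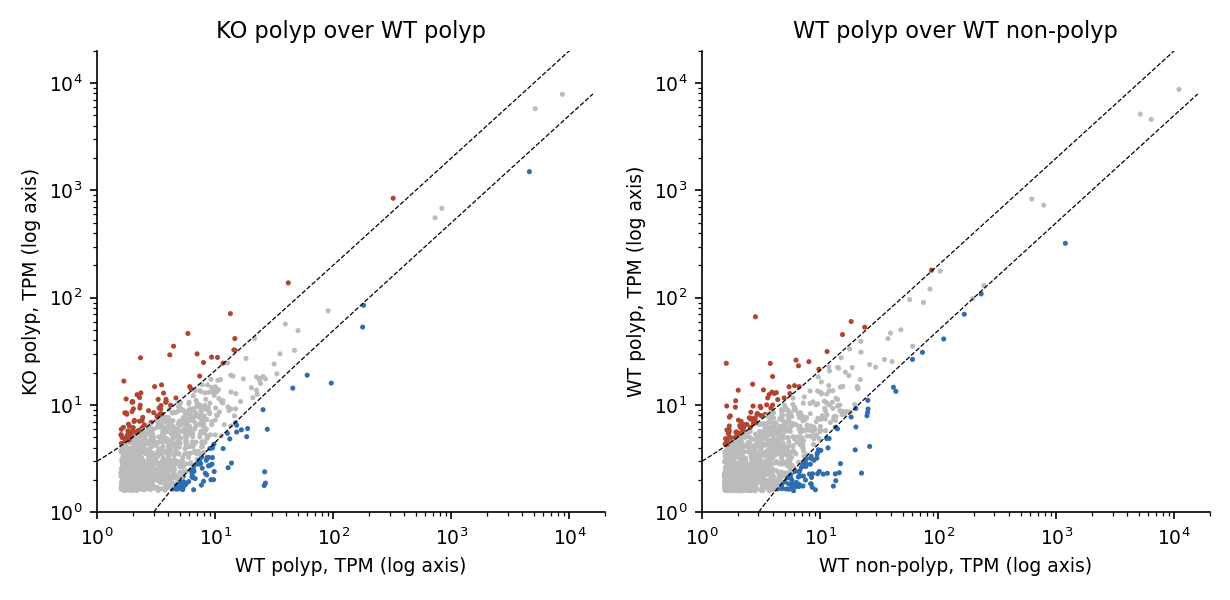
Level of each locus with a value in both libraries (TPM, log axes), KO polyps against WT polyps on the left and WT polyps against WT non-polyp tissue on the right. Points above the upper dashed line, in red, passed a log2 ratio of TPM + 1 of 1, and points below the lower one, in blue, passed -1. Most of the 1256 and 1217 points lie between the lines, and most calls (147 of 165 on the left and 157 of 171 on the right) are loci whose higher level was at least 5 TPM.

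The tissues of WT mice were compared in the same way, with WT polyps as the library shared by both comparisons. Of 1217 matched loci, 84 (6.90%) were higher and 87 (7.15%) lower in WT polyps than in WT non-polyp tissue, with a median log2 ratio of 0.03. Of 15021 annotated genes, 12.3% were higher and 8.22% lower. With a higher level of at least 5 TPM, 74 of 435 loci (17.0%) were higher and 83 (19.1%) lower, against 14.0% and 9.33% of genes. Levels scaled to the median of genes, which lay at 0.20 on the log2 scale in this comparison and at -0.07 between the polyp libraries, moved the split to 46 higher and 122 lower loci here, and to 106 and 66 there. With the highest row of each merged locus 52 were higher and 60 lower, and with an overlap of at least 50% of both intervals 31 and 28 of 736.

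The locus over Gm34846, upstream of Nkd1, an inhibitor and target of Wnt signalling, gave the highest ratio. The interval chr8:88479824-88487836 stood at 66.5 TPM in WT polyps against 2.83 TPM in WT non-polyp tissue (log2 ratio 4.14), and no locus was assembled there in KO polyps. Nkd1 itself stood at 3.49 TPM in KO polyps, 334 TPM in WT polyps and 19.1 TPM in WT non-polyp tissue, the same order as the locus 33.5 kb away.

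High ratios were also seen for the locus near Zbtb8b (24.5 TPM in WT polyps against 1.60 TPM in WT non-polyp tissue, log2 ratio 3.29) and the loci over Gm4617 (13.8 against 2.02 TPM, 2.29) and Gm34147 (15.6 against 2.68 TPM, 2.18), a list that leaves out a locus not reported here. The locus near Ap1m1, the gene of a clathrin adaptor subunit, stood at 9.80 TPM in WT polyps, summed over 4 rows, against 1.62 TPM in WT non-polyp tissue (log2 ratio 2.04), and was not called with the highest row (0.68). None of these 5 loci, Gm34846 included, was assembled in KO polyps. Of all 1217 loci matched between the WT libraries, 403 were likewise not held by KO polyps.

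The loci lowest in WT polyps against WT non-polyp tissue were high in KO polyps too. Gm33901 and the pair Gm33398 and Gm33323, given above, had log2 ratios of -2.82 and -2.41. The locus over Gm39718 and Gm39717 stood at 11.4 TPM in KO polyps, 1.76 TPM in WT polyps and 12.9 TPM in WT non-polyp tissue (log2 ratio -2.34 for WT polyps over WT non-polyp tissue). A spliced locus 3.24 kb past Zmiz1, a transcriptional coregulator gene, stood at 10.7, 1.97 and 13.6 TPM (-2.29), the locus over Gm42293, Gm42292 and Gm52700, which ends 305 bases from Txn1, the thioredoxin gene, at 13.0, 2.35 and 14.5 TPM (-2.21), and the locus over Gm33641 and Gm33694 at 11.8, 2.29 and 13.5 TPM (-2.14). The levels near Txn1 sum 3, 1 and 3 rows and those over Gm39718 and Gm39717 2, 1 and 2. With the highest row alone these 2 ratios were -1.44 and -1.91. Zmiz1 stood at 31.5, 24.4 and 28.6 TPM and Txn1 at 1118, 719 and 1247 TPM in the same order, a smaller spread than that of the loci beside them. Colonocyte genes also stood low in WT polyps (7 absorptive colonocyte markers summed to 4603, 568 and 4048 TPM), and their part in the level of these loci was not tested.

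**Figure D5:**
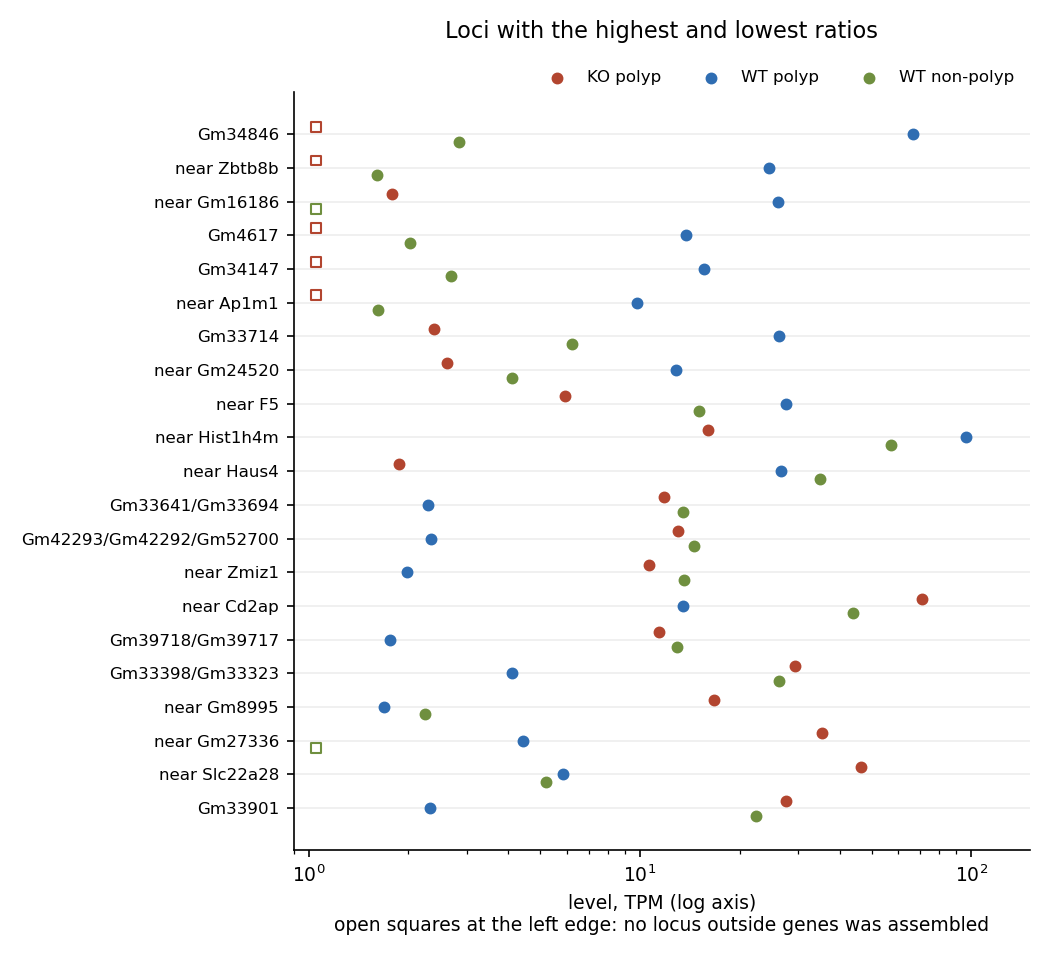
Level (TPM, log axis) of 21 loci among those with the highest and lowest ratios in either comparison, named by the RefSeq gene they overlap or the nearest annotated gene, in KO polyps, WT polyps and WT non-polyp tissue; open squares at the left edge mark libraries in which no locus outside genes was assembled. In the first 10 rows the WT polyp point lies farthest right, near Haus4 the KO polyp point alone lies low, and in the 10 rows below it the WT polyp point lies to the left of the KO polyp point.

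Over all matched loci, ratios followed those of the nearest gene only weakly. Between KO and WT polyps Pearson's r was 0.14 and Spearman's rho 0.15 over 1256 loci, and between WT polyps and WT non-polyp tissue 0.18 and 0.16 over 1217 loci. These describe points that share libraries and, for neighbouring loci, a nearest gene. Within 5 kb r was 0.16 in both comparisons, and beyond 5 kb 0.10 and 0.25. Of the 88 loci higher in KO polyps, 13 lay beside a gene that was also higher and 2 beside a gene that was lower, and of the 77 lower loci 8 lay beside a lower gene and 3 beside a higher one. Of all 1256 matched loci, 107 (8.52%) lay beside a higher and 72 (5.73%) beside a lower gene.

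Loci beside genes of the marker lists were then counted. Of 20 loci whose nearest gene, within 50 kb, was 1 of the 11 Wnt and crypt genes, 1 was assembled in KO polyps, 19 in WT polyps and 1 in WT non-polyp tissue, with summed levels of 2.45, 151 and 2.83 TPM. Of all 9524 merged loci, 46.7% were held by KO polyps, 47.1% by WT polyps and 39.1% by WT non-polyp tissue, the shares against which this count and those of the other lists and of the receptor clusters below stand. Axin2, a scaffold protein that turns Wnt signalling down, had 9 such loci, all in WT polyps only, as were 29.7% of all merged loci, between 2.07 and 11.9 TPM. Of these, 8 lay 3.70 to 19.98 kb past the gene in a row, and chr11:108889835-108901760, over Gm46298, lay 18.6 kb upstream. Axin2 stood at 20.1 TPM in KO polyps, 335 TPM in WT polyps and 28.1 TPM in WT non-polyp tissue. Near Apcdd1, the gene of a Wnt inhibitor at the cell surface (1.20, 451 and 7.90 TPM), lay 5 loci of WT polyps and 1 of KO polyps, and past Mmp7, the gene of the protease matrilysin (1.68, 523 and 14.6 TPM), lay 2 loci of WT polyps, at 4.45 and 5.59 TPM. The second locus near Nkd1, chr8:88519087-88521085, overlapped Gm35162 and stood at 16.9 TPM in WT polyps only.

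For 7 absorptive colonocyte genes the counts ran the other way, with 6 loci in KO polyps, 1 in WT polyps and 4 in WT non-polyp tissue. Most lay past Slc26a3, a chloride exchanger of the colon surface (10.8, 2.09 and 7.48 TPM summed over its loci). T cell genes had 5 loci, all in KO polyps and all beside Cd2, an adhesion molecule of T cells, between 1.70 and 3.29 TPM. Of the B cell genes, Cd79b had a locus in KO polyps, at 2.24 TPM, and Cd79a had a locus in WT non-polyp tissue, at 3.05 TPM. The part of lymphocyte content in these counts was not tested. In the 6 clusters of antigen receptor segments lay 36 merged loci, 27 held by KO polyps, 9 by WT polyps and 5 by WT non-polyp tissue, with 91.3, 33.6 and 9.40 TPM in the same order, while the listed segments of the clusters summed to 22049, 675 and 5911 TPM. Most of the KO polyp loci lay in the light chain clusters, 9 in Igk and 8 in Igl, the latter in 1 run of 8.55 kb. The Trb cluster ran the other way in number, with 3 loci in KO polyps, 6 in WT polyps and 2 in WT non-polyp tissue. It gave 37.3, 27.7 and 4.05 TPM of the summed locus levels. The 5 epithelial genes had 7 loci in KO polyps, 5 in WT polyps and 7 in WT non-polyp tissue, plasma cell genes 3, 2 and 0, and mast cell genes 1, 0 and 0, while the Paneth cell genes had only the loci past Mmp7. Neutrophil, smooth muscle, fibroblast, adipocyte and erythroid genes had no locus nearest to them in any library.

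The interval around Clec7a is of interest because it is linked to the targeted gene. Within 1000 kb of Clec7a lay 29 merged loci, of which 20 were assembled in KO polyps (16 of them there only), 6 in WT polyps and 7 in WT non-polyp tissue, with summed levels of 172, 40.6 and 15.3 TPM. Of all merged loci, 46.7% were held by KO polyps (26.6% by KO polyps only), 47.1% by WT polyps and 39.1% by WT non-polyp tissue. The region holds genes of C-type lectins of natural killer cells and other cells, such as the Clec2 and Klrb1 families. The highest locus, chr6:128921863-128923072 on the minus strand, reached 93.0 TPM in KO polyps while in both WT libraries the place belonged to a locus that touched a gene. The 172 TPM of KO polyps thus includes these 93.0 TPM, while the rule left out the WT loci at that place. The locus is also 1 of the 16 counted in KO polyps only, so the sums and counts are not levels of the region. The nearest gene, Gm44223, stood at 97.3 TPM in KO polyps, 8.33 TPM in WT polyps and 119.6 TPM in WT non-polyp tissue. The locus chr6:128926681-128928994 stood at 35.4 TPM in KO polyps against 4.44 TPM in WT polyps (log2 ratio 2.74), while in WT non-polyp tissue the place belonged to a locus that touched a gene. The locus chr6:129028336-129029524, given above, ran the other way. Clec2h, beside 2 of the KO polyp loci, stood at 249.8 TPM in KO polyps, 38.4 TPM in WT polyps and 190.6 TPM in WT non-polyp tissue, and a row of 5 loci lay within 4002 bases of Klrb1, a receptor gene of natural killer cells, which was below 1 TPM in all 3 libraries. The genotype and the origin of the mice cannot be told apart for these loci.

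Many of the loci stood in rows. With gaps of at most 10 kb, a rule set after seeing the data, 1740 of the merged loci fell into 220 runs of 6 or more. Of these runs, 136 held loci of all 3 libraries, 8 held loci of KO polyps only, 24 of WT polyps only and 0 of WT non-polyp tissue only. Of all merged loci, 26.6% were in KO polyps only, 29.7% in WT polyps only and 19.3% in WT non-polyp tissue only. A run of 7 loci near Gm5575 (chr5:24215810-24221551) summed to 501 TPM in WT polyps and 1052 TPM in WT non-polyp tissue, with no locus outside genes in KO polyps. A locus of KO polyps that touched a gene there would not be counted, so these sums are not levels of the place. The same holds for the runs of 1 library. The longest run of WT polyps only held 26 loci over 52.7 kb (chr4:88942217-88994920, near AL805899.1, summing to 81.8 TPM), followed by 23 loci over 44.6 kb (chr5:119229711-119274263, near Gm7538, 59.7 TPM) and 22 loci over 44.4 kb (chr5:118830045-118874417, near Gm43782, 61.6 TPM). Runs of 9 loci lay beside Sp5, a transcription factor gene induced by Wnt signalling (chr2:70456728-70479067, 21.2 TPM), near Cplx2 (18.7 TPM) and near Gm38811 (22.6 TPM). Other runs of WT polyps only lay near genes such as Cyp2b10 and Olfr879-ps1. Of the runs in KO polyps only, the 8 loci of chr16:19119417-19127964 (20.7 TPM) lay in the Igl cluster, and 7 loci (15.1 TPM) lay near S1pr1, the receptor by which lymphocytes leave lymphoid tissue. The other runs of KO polyps only lay near Kcng3, Ms4a4c, Cycs-ps2, Nxpe1-ps, Gm12066, and Carns1 and Tbc1d10c. A run counts here as many loci, so counts of loci in 1 library overstate the number of separate places: without the runs 3999 loci of KO polyps, 4009 of WT polyps and 3476 of WT non-polyp tissue remained, and 682 merged loci were shared by all 3.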

How the data were processed

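Total RNA of 4 pooled libraries was sequenced, and 3 of them were used for loci. Per the methods and labels, reads were trimmed by the authors (Trimmomatic), aligned to GRCm38 (mm10) by HISAT2 and assembled into transcripts by StringTie in Galaxy; versions and the annotation release are not given in the sources used here, and the kit named differs between labels and methods, though neither kit marks strand. The deposited TPM column lists annotated genes beside assembled loci, and the assembled loci alone sum to 1000000 TPM. The deposited FPKM (a level per length and depth) was used as an alternative, and the deposited coverage signal (average depth along a locus) gave aligned bases (coverage times length). Coverage over FPKM implies 2.79, 2.73 and 2.79 gigabases aligned in KO polyps, WT polyps and WT non-polyp tissue. The deposited TPM of the KO non-polyp table was read for annotated genes; its ratio column was not used.

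Members were found by interval overlap, any shared base, strand ignored. Overlapping members of the libraries were merged (683 merged loci hold several rows of a library) and TPM summed per library. No test was run, since each group holds 1 library. Named loci are the 6 highest per library and over all libraries, the 4 highest per library without a counterpart, and the longest and shortest. Also named are the 6 highest and 6 lowest ratios per comparison among loci whose higher level was at least 5 TPM. Of these 46, 3 on chromosome 18 and the shortest are not named. A further named locus and a locus of the marker lists are not reported here. Loci outside RefSeq genes are called by the nearest annotated gene. Other loci given were found by the marker lists, by the neighbourhood of Clec7a or after seeing the values. The members, lists and alternatives were chosen with earlier results of these data known. The code was tested on simulated intervals. Python 3.11.15, pandas 2.3.3, numpy 2.4.6, scipy 1.17.1 and matplotlib 3.10.9 were used.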

Additional observations from a re-analysis of the deposited data

How the results depend on the processing

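A minimum of 0.5 TPM changed none of the values computed under it, and genes of all tables in place of those of the same table took away 1 locus of KO polyps. In all, 90 values stayed within their tolerance and 95 moved. Those that moved were mostly counts that a stricter choice of loci lowers by construction. Those that stayed include values that could not change. These are all values under 0.5 TPM, since no locus lay below 1 TPM, and the matched counts under another pseudocount, rescaling or the highest row. The number that stayed is therefore not a measure of stability. Values follow in the order loci of KO polyps, WT polyps and WT non-polyp tissue; merged loci in all libraries and in 1 library; percent of KO polyp loci found in WT polyps, of KO polyp loci found in WT non-polyp tissue and of WT polyp loci found in WT non-polyp tissue; matched, higher and lower loci for KO over WT polyps and for WT polyps over WT non-polyp tissue; and percent of assembled TPM in the 3 libraries.

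With a minimum of 5 TPM these were 313, 357 and 255 loci, 94 and 359 merged loci, 42.5%, 52.1% and 37.8%, 124 matched with 13 higher and 11 lower, 120 matched with 11 higher and 18 lower, and 2.10%, 2.49% and 2.92%. At least 5 kb from a gene they were 1426, 1649 and 1157, 192 and 2483, 24.5%, 32.0% and 22.4%, 297 with 27 and 23, 306 with 34 and 36, and 2.07%, 2.61% and 2.87%. At 500 bases or more they were 1859, 1944 and 1603, 397 and 2385, 36.7%, 46.1% and 33.7%, 581 with 50 and 19, 549 with 33 and 44, and 0.748%, 0.738% and 0.633%, which turned the order of the libraries in the TPM share. With FPKM they were 2154, 2326 and 1896, 390 and 3329, 30.5%, 38.0% and 28.7%, 586 with 37 and 32, 575 with 27 and 39, and 2.65%, 3.06% and 3.39%.

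With an overlap of 50% of both intervals, 405 merged loci were in all libraries, the shares were 14.9%, 19.0% and 14.3%, and 766 (28 higher, 25 lower) and 736 (31 and 28) loci matched. A pseudocount of 0.1 TPM gave 144 higher and 110 lower loci in KO over WT polyps and 135 and 122 in WT polyps over WT non-polyp tissue, and 5 TPM gave 26 and 17, and 19 and 25. Rescaling to the gene median gave 46 higher and 122 lower loci and a median log2 ratio of -0.12 in WT polyps over WT non-polyp tissue. The highest row of a merged locus gave 37 lower loci in KO over WT polyps and 52 higher loci in WT polyps over WT non-polyp tissue. Choices added after seeing the data were loci with a strand only (225 matched with 40 higher and 26 lower in KO over WT polyps, 236 with 32 and 37 in WT polyps over WT non-polyp tissue), leaving out the 6 highest loci (1.44%, 1.51% and 1.29% of assembled TPM) and leaving out runs, which moved nothing beyond tolerance. For the named loci 223 values stayed on their side of the threshold, 6 fell below it, 3 passed it and no called value changed sign; the uncalled ratio of chr19:8019569-8034056 for WT polyps over WT non-polyp tissue was 0.15 as reported and -0.04 with rescaling. The median log2 ratio of WT polyps over WT non-polyp tissue lay near 0 and was also below 0 with a minimum of 5 TPM, with FPKM and with stranded loci only. Why these values moved was not tested beyond the choices themselves. No paired analysis was possible because each group holds 1 library and no test was run.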
